A study of Homo sapiens with 6 samples.

Results

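ESRP1, ESRP2 and RBM47 encode RNA-binding proteins that regulate splicing in epithelial cells, and their transcripts were followed in BT549 cells in which the microRNA miR-200c was switched on. The members were all array rows whose platform gene symbol is exactly ESRP1, ESRP2 or RBM47. ESRP1 had 51 such rows, ESRP2 had 39 and RBM47 had 56, together 146 of the 924687 rows tested and 3 of 22085 genes, and 0 further rows named a member beside another gene. BT549 is an established human breast cancer line of the triple-negative class that resembles mesenchymal cells, and it carried pTripZ-200c, a doxycycline-inducible miR-200c construct. The miR-200c group was 3 cultures kept in doxycycline at 1 µg/mL for 48 hours. The Ctrl group was 3 cultures of the same engineered line left without the drug, so the construct was present in both groups. Each culture was hybridised to 1 array (n = 3 a group). Doxycycline and the microRNA cannot be told apart, since the treated cultures received both, and the sources used here do not say whether the line is a clone or a pool.

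ESRP1 and ESRP2 are close relatives that bind RNA near alternative exons and promote the epithelial forms of transcripts such as FGFR2, CD44 and ENAH. RBM47 binds introns and 3′ ends of many mRNAs, affects their splicing and stability, and in mice works as a cofactor of the editing enzyme APOBEC1. In mesenchymal cancer cells ESRP1 is known to be held down by the repressor ZEB1, which is itself a classical target of the miR-200 family.

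The induced microRNA and its relatives are shown because the bases in capitals, the seed from base 2 to base 8, sort the family into 2 seed groups (mature sequences from RefSeq, GRCh38.p14, read 5′ to 3′). The sequence of miR-200c-3p lies at chr12:6963742-6963764 on the plus strand, and it shares its seed with miR-200b-3p and miR-429, while miR-200a-3p and miR-141-3p share the other.
hsa-miR-200c-3p: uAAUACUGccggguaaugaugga
hsa-miR-200b-3p: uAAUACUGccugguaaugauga
hsa-miR-429: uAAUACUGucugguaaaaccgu
hsa-miR-200a-3p: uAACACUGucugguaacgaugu
hsa-miR-141-3p: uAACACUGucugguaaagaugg

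The arrays held log2 intensities for exon regions (rows named PSR) and exon junctions (rows named JUC), and 23 background rows that match no gene served as the reference. Across the arrays the highest background row lay between 6.20 and 6.36 log2, and a row above the highest background row of its own array on all 3 arrays of a group is called above background there. The median background row lay between 4.51 and 4.58, so a row within background is not shown to be without signal. Median intensity ranged from 5.18 to 5.21 over the 6 arrays. The single row for MIR200C had 9.50, 9.53 and 9.55 log2 in miR-200c cultures A, B and C, against 4.67, 5.15 and 5.07 in Ctrl cultures A, B and C, and ZEB1 changed by -0.77 log2 (adjusted p = 1.07e-05, limma). Of the line's markers VIM, FN1, CDH2 and AXL, each had a gene mean above the background rows in both groups, while the leukocyte and endothelial genes PTPRC, CD3E, PECAM1 and CDH5 had means from 4.24 to 4.75 log2, within the background range. Of the epithelial genes CDH1, EPCAM and KRT19, CDH1 rose by a measured 1.77 log2, or at least 1.73-fold with its Ctrl mean within background. EPCAM rose by a measured 0.49 with both means within background, so it has no bound, and KRT19 had 5.09 log2 in miR-200c and 4.95 in Ctrl cultures and did not pass. In bulk RNA, a change in the number of cells that express a gene and a change in RNA per cell cannot be told apart.

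At the gene level, taken as the mean log2 intensity over a gene's rows, ESRP1 and RBM47 rose in miR-200c cultures and ESRP2 did not pass the test. Over all genes tested, 9.9% passed at an adjusted p of 0.05, and 6.06% were higher in miR-200c. ESRP1 had 6.71, 6.80 and 6.77 log2 in miR-200c cultures A, B and C, against 5.18, 5.25 and 5.16 in Ctrl cultures A, B and C. The groups did not overlap, and the gap between the lowest miR-200c and the highest Ctrl culture was 1.45. The log2 change of ESRP1 was 1.56 (SE 0.041, limma adjusted p = 5.33e-07), the 8th largest rise of all genes. Its Ctrl mean lay within the background range, so the rise on this mean was at least 0.45 log2, or at least 1.36-fold.

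RBM47 had gene-level values of 6.19, 6.15 and 6.26 log2 in miR-200c cultures A, B and C, against 5.59, 5.51 and 5.55 in Ctrl cultures A, B and C. The groups again did not overlap. The measured log2 change was 0.65 (SE 0.041, limma adjusted p = 3.88e-05), the 70th largest rise. Both means lay within the background range, because many RBM47 rows were dim in both groups, and no bound on the rise can be given from the mean. ESRP2 had 5.08, 5.12 and 5.04 log2 in miR-200c cultures A, B and C, against 5.04, 5.15 and 5.08 in Ctrl cultures, and the groups overlapped. Its log2 change was -0.01 with a 95% interval from -0.10 to 0.08 (adjusted p = 0.933). Both ESRP2 means were in the background range, where changes are compressed, so the interval describes the mean of its rows and not the transcript alone.

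**Figure D1:**
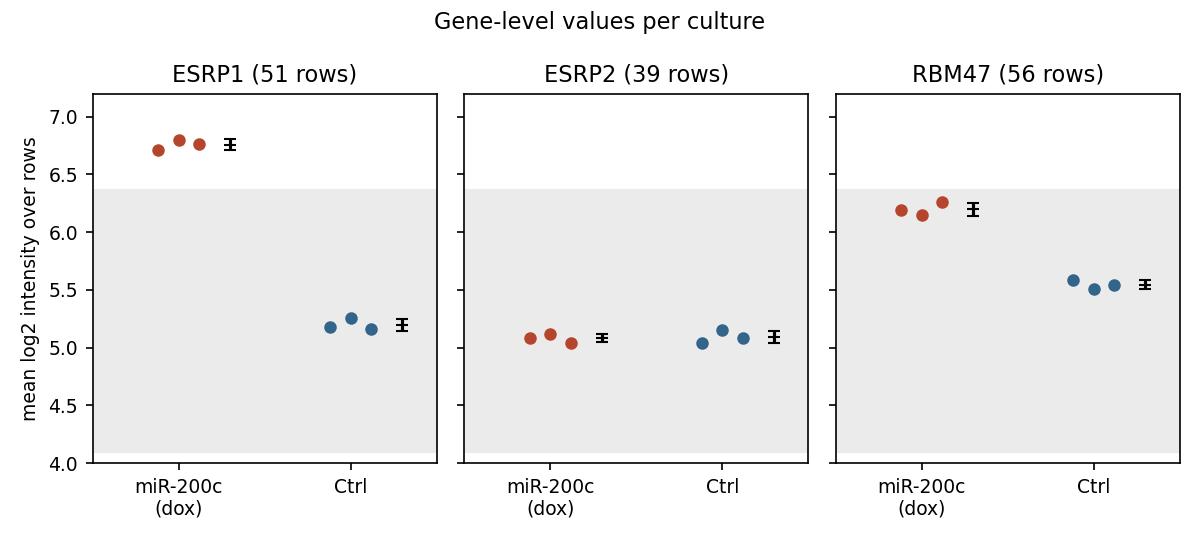
Mean log2 intensity over the rows of ESRP1, ESRP2 and RBM47 in each culture, miR-200c left of Ctrl, with the group mean and SD (n = 3) beside the points and the span of the background rows in grey (4.10 to 6.36). ESRP1 and RBM47 sit higher in all miR-200c cultures, and ESRP2 overlaps between the groups.

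The measured size of both changes depended on the rows averaged. With rows whose mean over the 6 arrays was above the median row, the change was 2.22 for ESRP1, 1.23 for RBM47 and 0.03 for ESRP2. With rows whose mean exceeded the highest background row, a setting chosen after seeing the data, it was 2.68 for ESRP1, 1.40 for RBM47 and 0.03 for ESRP2. Both filters read the miR-200c arrays too, so a row can enter through its rise, and these values describe the rows kept and give no size for the gene.

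Of the 51 ESRP1 rows 26 rose, 0 fell and 25 did not pass when p-values were adjusted over all rows. That is 51.0% of the rows, against 0.451% of all rows tested called higher in miR-200c and 0.728% called in either direction. The rises ranged from 1.10 to 3.90 log2 with a median of 2.58, and 10 of them exceeded 3. In 36 of the 51 rows the lowest miR-200c culture was above the highest Ctrl culture, which held for 7.8% of all rows. ESRP1 had 26 rows above background in miR-200c cultures, against 4 rows in Ctrl cultures. In 20 rows the level was above background on all miR-200c arrays and within it on all Ctrl arrays, and each of those 20 rows rose.

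The largest measured change was in the junction row JUC08003938, with 8.51, 9.04 and 8.89 log2 in miR-200c cultures A, B and C, against 5.09, 4.74 and 4.91 in Ctrl cultures A, B and C. The measured change was 3.90 (SE 0.16, adjusted p = 7.09e-04), and against the background it was at least 5.67-fold. The exon-region row PSR08007881 had 8.996, 9.14 and 9.01 log2 in miR-200c cultures, against 5.31, 5.16 and 5.25 in Ctrl cultures. Its measured change of 3.81 (SE 0.081, adjusted p = 3.64e-04) corresponds to at least 6.68-fold, and it had the smallest p of the ESRP1 rows. Both rows were above background in every miR-200c culture and within it in every Ctrl culture, so rows of this kind cannot be ordered by their true change.

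PSR08007875, PSR08007880 and PSR08007885 followed with measured changes of 3.79, 3.72 and 3.64, or at least 6.34-fold, 6.38-fold and 5.13-fold. The bright junction row JUC08003952 had 9.94, 10.43 and 10.32 log2 in miR-200c cultures A, B and C, against 5.97, 6.82 and 7.18 in Ctrl cultures A, B and C, with the Ctrl values the more scattered and 1 of them within background. It changed by 3.57 (SE 0.31, adjusted p = 0.00714). JUC08003949 was above background in both groups, with 9.52, 9.35 and 9.05 log2 in miR-200c cultures, against 7.40, 7.22 and 7.59 in Ctrl cultures, a change of 1.90 (SE 0.15, adjusted p = 0.00539) that needs no bound.

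Some ESRP1 rows were bright without a rise. PSR08007878, the brightest of the gene, had 12.85, 12.69 and 12.57 log2 in miR-200c cultures A, B and C, against 12.86, 12.81 and 12.70 in Ctrl cultures A, B and C. The groups overlapped, and the change was -0.08 with a 95% interval from -0.31 to 0.15 (adjusted p = 0.854). Of 26 rows above background in miR-200c cultures, the 3 that did not pass were this row, JUC08003948 (change -0.05, adjusted p = 0.975) and JUC08003944 (change 1.60, adjusted p = 0.121, with Ctrl culture B at 6.80 and the others at 5.65 and 5.61). Among rows with a lower mean in miR-200c, JUC08003934 had the smallest p, with a change of -0.22 (adjusted p = 0.606) at levels within background. What PSR08007878 and JUC08003948 hybridise to was not tested, since the table gives no probe sequence. The RefSeq table (GRCh38.p14) lists the pseudogene RPS15AP26 inside the span of ESRP1.

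**Figure D2:**
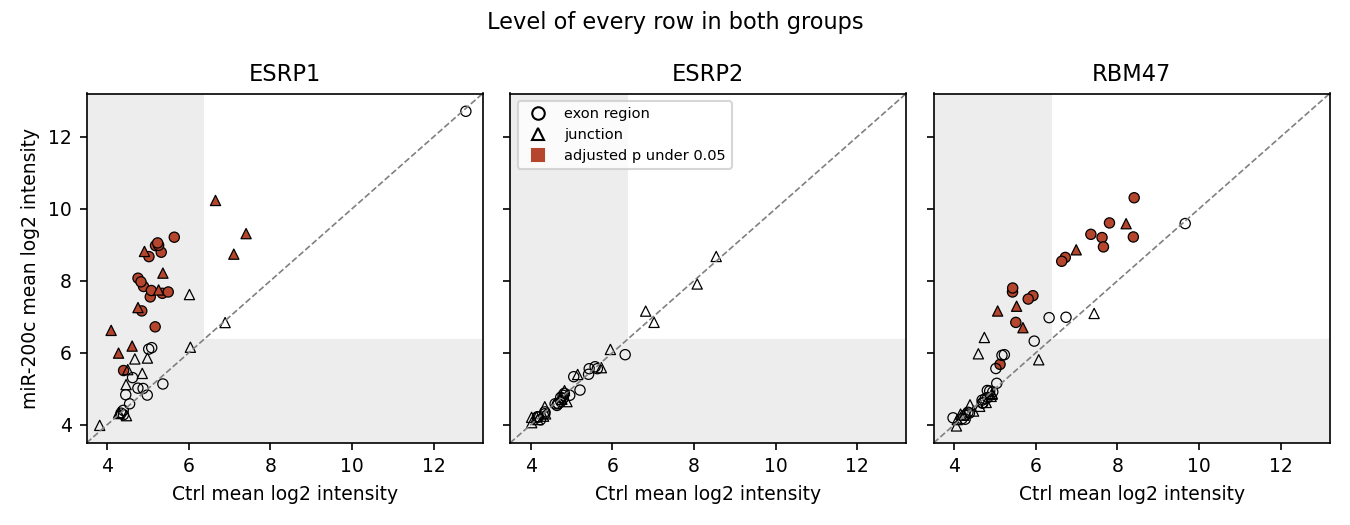
Mean log2 intensity of every row in miR-200c cultures (vertical) against Ctrl cultures (horizontal) for the 3 genes, with exon-region rows as circles, junction rows as triangles, filled marks for an adjusted p under 0.05, and grey up to the highest background row (6.36). Most filled ESRP1 rows are within background in Ctrl alone, 10 filled RBM47 rows are above background in both groups, and ESRP2 rows lie near the dashed line of equal levels.

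RBM47 rose in rows that were above background in both groups. Of its 56 rows 19 rose, 0 fell and 37 did not pass, so 33.9% were called, against 0.451% of all rows called higher in miR-200c. The rises ranged from 0.55 to 2.37 log2 with a median of 1.76. RBM47 had 22 rows above background in miR-200c cultures, against 13 rows in Ctrl cultures, and 30 rows were within background on all 6 arrays. Of the 13 rows above background in both groups, 10 rose, with changes among the 13 from -0.34 to 1.94 and a median of 1.58. These rows give measured changes and not bounds.

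PSR04015610, the RBM47 row with the smallest p, had 9.22, 9.21 and 9.44 log2 in miR-200c cultures A, B and C, against 7.47, 7.34 and 7.24 in Ctrl cultures A, B and C. The groups were separate by more than the spread of either, and the change was 1.94 (SE 0.10, adjusted p = 0.00160), or 3.84-fold. PSR04015628 was brighter, with 10.44, 10.18 and 10.29 log2 in miR-200c cultures, against 8.49, 8.50 and 8.24 in Ctrl cultures, and changed by 1.90 (SE 0.11, adjusted p = 0.00203). PSR04015609 changed by 1.93 (SE 0.16, adjusted p = 0.00619). The junction row JUC04008271 had 9.73, 9.18 and 9.85 log2 in miR-200c cultures, against 8.33, 8.08 and 8.23 in Ctrl cultures, a smaller change of 1.37 (SE 0.18, adjusted p = 0.0307).

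The largest measured changes of RBM47 came from rows within background in Ctrl cultures. PSR04015629 had 7.95, 7.51 and 7.94 log2 in miR-200c cultures A, B and C, against 5.31, 5.54 and 5.45 in Ctrl cultures A, B and C, a measured change of 2.37 (SE 0.14, adjusted p = 0.00205) and at least 2.80-fold. PSR04015622 changed by a measured 2.26 (at least 2.60-fold), and the junction row JUC04008280 by 2.10 (at least 1.80-fold, adjusted p = 0.0204). The bounds of these rows lie below the 3.84-fold of PSR04015610, so the rows cannot be ordered by their true change.

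As in ESRP1, RBM47 had a bright row that did not pass. PSR04015627 had 9.66, 9.64 and 9.46 log2 in miR-200c cultures A, B and C, against 9.66, 9.61 and 9.71 in Ctrl cultures A, B and C, with a change of -0.07 and a 95% interval from -0.27 to 0.13 (adjusted p = 0.857). The other rows above background in miR-200c cultures that did not pass were PSR04015620 (change 0.25, adjusted p = 0.439), PSR04015623 (change 0.65, adjusted p = 0.0532) and JUC04008287 (change -0.34, adjusted p = 0.565). JUC04008287 had 7.37, 7.18 and 6.73 log2 in miR-200c cultures, against 7.40, 7.43 and 7.45 in Ctrl cultures, so its groups were separate by a narrow margin set by culture A. The RefSeq table lists RBM47-AS1, an antisense RNA, the pseudogene RPL37P14 and the microRNA gene MIR4802 within the span of RBM47, and the sources used here do not say whether rows read 1 strand.

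**Figure D3:**
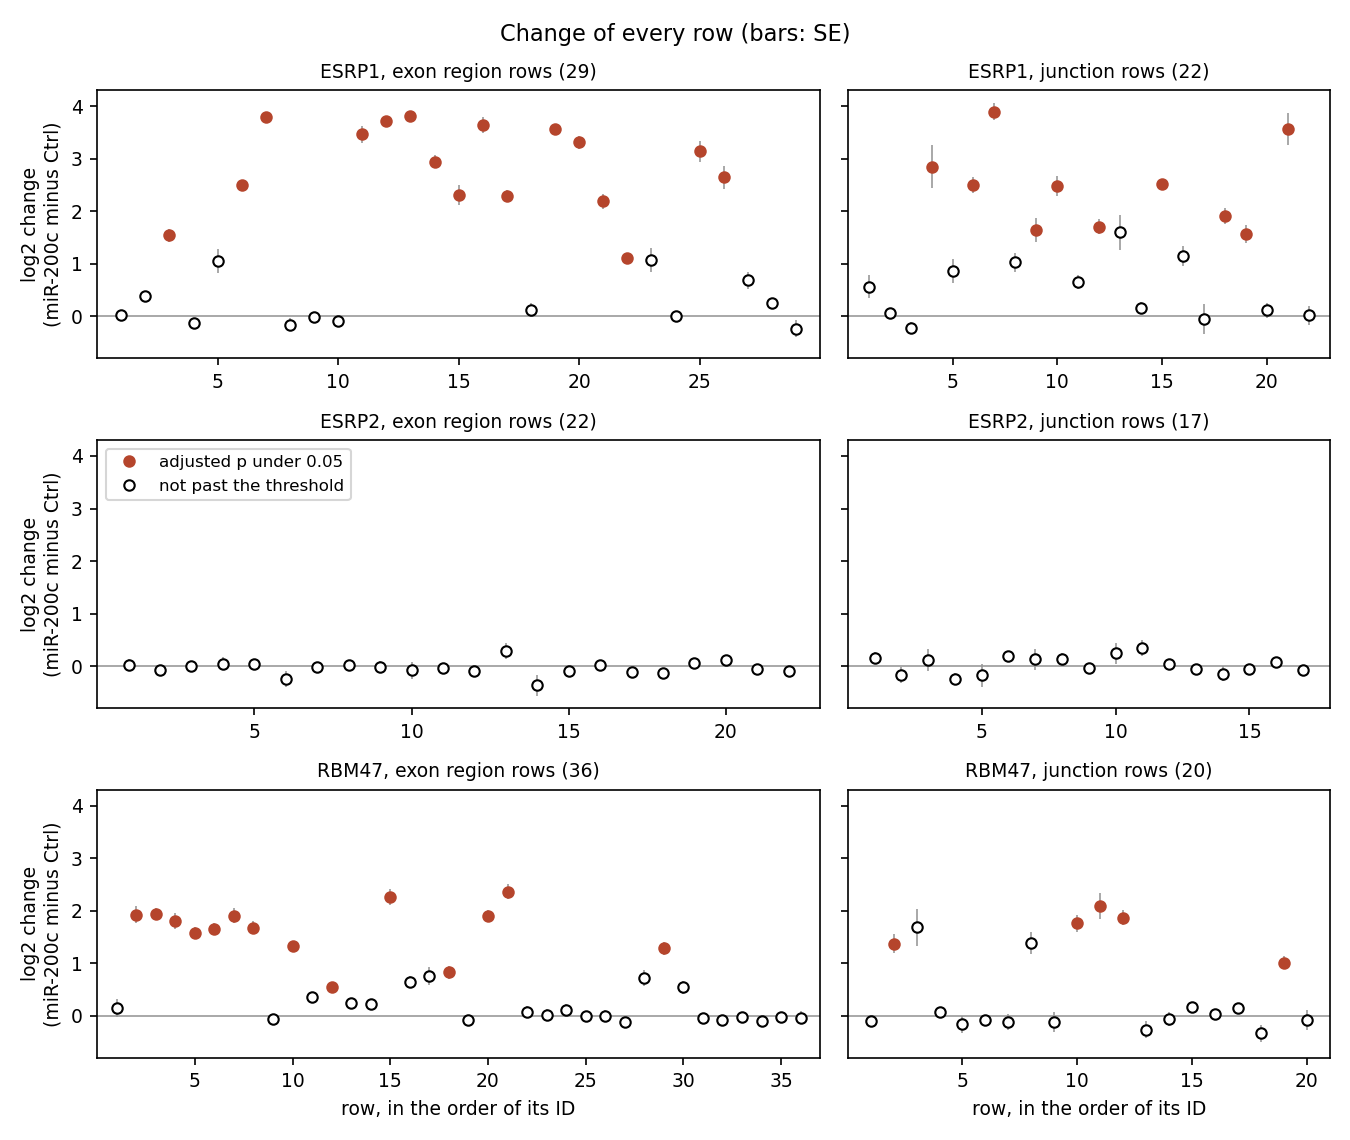
Log2 change (miR-200c minus Ctrl) of every row of the 3 genes with its SE, in the order of the row IDs, with exon-region rows on the left, junction rows on the right and filled points for an adjusted p under 0.05. ESRP1 rises reach 3.90, RBM47 rises reach 2.37, and all 39 ESRP2 rows lie between -0.37 and 0.34.

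RBM47 has 4 start windows in the RefSeq promoter table, and ESRP1 and ESRP2 have none there. Each window was searched over the 250 bases before the start for 2 E-box forms that ZEB1 is known to bind. The first form was CAGGTG, which reads as CACCTG from the other strand. The second form was CAGGTA, which reads as TACCTG from the other strand. One form was found in 2 of the 4 windows, and 23.8% of 35116 windows of all genes held at least 1 form (17.5% the first and 7.99% the second). The 4 windows belong to 1 gene and are too few to set apart from that share. Which start BT549 cells use was not tested. The 2 windows with a match are shown because RBM47 rose on the arrays, with the match in capitals (minus strand of GRCh38.p14, read 5′ to 3′ toward the start). Binding was not measured. The match begins at base -187 from the start in the first and at base -208 in the second.
RBM47 window at chr4:40630595-40630844: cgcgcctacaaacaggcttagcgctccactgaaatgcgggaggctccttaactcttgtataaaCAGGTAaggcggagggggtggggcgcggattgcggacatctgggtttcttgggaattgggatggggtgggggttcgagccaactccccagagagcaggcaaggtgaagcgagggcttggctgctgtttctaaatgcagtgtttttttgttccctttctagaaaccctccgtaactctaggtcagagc
RBM47 window at chr4:40514582-40514831: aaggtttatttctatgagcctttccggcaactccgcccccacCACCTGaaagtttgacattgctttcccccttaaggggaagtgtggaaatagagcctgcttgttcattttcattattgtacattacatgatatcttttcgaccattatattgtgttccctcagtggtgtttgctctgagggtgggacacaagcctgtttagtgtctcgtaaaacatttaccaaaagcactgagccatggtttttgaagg

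ESRP2, the relative of ESRP1, had no row past the threshold in limma. Of 39 rows 0 were called, against 0.728% of all rows called in either direction, a count too small to set apart from that share. On all 6 arrays 34 of the 39 rows were within background. Only 4 rows, all junctions, were above background, the same number in miR-200c and in Ctrl cultures. The brightest, JUC16009486, had 8.35, 8.88 and 8.80 log2 in miR-200c cultures A, B and C, against 8.25, 8.88 and 8.50 in Ctrl cultures A, B and C. The groups overlapped, and the change of 0.13 had a 95% interval from -0.34 to 0.60 (adjusted p = 0.895).

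JUC16009481 had 8.09, 7.90 and 7.75 log2 in miR-200c cultures, against 7.90, 8.36 and 7.97 in Ctrl cultures, a change of -0.17 with a 95% interval from -0.52 to 0.18. JUC16009490 had 6.85, 7.43 and 7.19 log2 in miR-200c cultures, against 6.93, 6.69 and 6.84 in Ctrl cultures, and its change of 0.34 had an interval from -0.03 to 0.71 (adjusted p = 0.542), which was the smallest adjusted p of the gene. The fourth row, JUC16009484, changed by -0.18 with an interval from -0.70 to 0.34. The upper ends of these 4 intervals lie at or below 0.71 log2. Rows above background in both groups had a median change of -0.02 in ESRP2 (4 rows), 0.79 in ESRP1 (4 rows, from -0.08 to 1.90) and 1.58 in RBM47 (13 rows), and a difference between the genes was not tested.

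The lowest and highest changes of ESRP2 were -0.37 in PSR16016827 (adjusted p = 0.617) and the 0.34 above. PSR16016826, JUC16009489 and JUC16009483 had changes of 0.28, 0.25 and -0.25 at levels within background. Over all ESRP2 rows the median change was -0.02, against -0.01 over all rows of the table. The protein-coding gene NFATC3 and the microRNA gene MIR6773 overlap the span of ESRP2 in RefSeq.

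Whether rows of 1 gene changed by different amounts was tested on each row relative to its gene's mean on the same array, over rows whose mean over the 6 arrays was above the median row, a filter that a row can pass through its rise. Of 15773 genes, 0.735% passed. ESRP1 passed with an adjusted p of 0.00361 over 33 rows, and RBM47 with 0.0336 over 30 rows, while ESRP2 had 0.860 over 13 rows. Single rows were called at an adjusted p under 0.05 over all rows in that test, and the share of all rows called is not given here. In ESRP1 7 rows changed more than the gene's mean and 4 changed less, namely PSR08007878, PSR08007901, JUC08003948 and JUC08003951. In RBM47 PSR04015622 and PSR04015629 changed more, and PSR04015620, PSR04015627 and JUC04008282 changed less. PSR08007901 and JUC04008282 were within background on all 6 arrays.

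Over all rows, with no such filter, the adjusted p was 0.00226 for ESRP1, 0.0170 for RBM47 and 0.998 for ESRP2. Rows within background understate a change. The same test was also run over rows whose mean over the 6 arrays exceeded the highest background row, a setting chosen after seeing the data. Its adjusted p was 0.00139 for ESRP1 (21 rows), 0.0126 for RBM47 (19 rows) and 0.781 for ESRP2 (4 rows). A row can pass that filter through its rise while within background in Ctrl cultures, so the part of such rows was not settled. With rows above the median row, the RBM47 call was lost when any 1 of the 6 arrays was left out (adjusted p from 0.0867 to 0.209). No exon is named for these rows, since the table holds no positions.

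The genes with a pattern most like each member were found by the Euclidean distance over the 6 arrays between gene-level values set to 0 at the Ctrl mean, among 18671 genes with at least 3 rows. Nearest to ESRP1 were INADL (distance 0.16), EPHA3 (0.18), CDS1 (0.29), FAM83B (0.32) and CDH1 (0.40). Their measured log2 changes were 1.49 for INADL, 1.58 for EPHA3, 1.68 for CDS1, 1.69 for FAM83B and 1.77 for CDH1, which encodes E-cadherin. The Ctrl means of INADL, EPHA3 and CDH1 were 5.74, 5.54 and 5.33 log2, within the background range, so these are differences of measured means. Nearest to RBM47 were TMTC2 (distance 0.0538), SIK1 (0.0607), C19orf21 (0.0805), WWC1 (0.0817) and PPM1H (0.0835), with changes from 0.62 to 0.64. Nearest to ESRP2 were CUBN, CCDC69, ADHFE1, GRK1 and ZIC4, at distances of 0.0191 to 0.0237 and with no change past the threshold. The distance weighs mainly the difference between the groups, and it is a description.

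Among other regulators of alternative splicing, 57 genes of a list of 65 were measured, and 1 rose, 3 fell and 53 did not pass. That is 7.02%, near the 9.9% of all genes, and 15 of the 57 were within background in both groups. The median change was 0.01, against -0.01 over all genes. QKI, an RNA-binding regulator linked to mesenchymal splicing, fell by 1.31 log2 (adjusted p = 1.53e-06), the largest change of the list. NOVA1, a splicing regulator best known from neurons, fell by 0.19 (adjusted p = 0.0123), and RBFOX2, a regulator of many mesenchymal exons, fell by 0.15 (adjusted p = 0.0407). MBNL2, a muscleblind splicing factor, rose by 0.17 (adjusted p = 0.0120). The highest gene-level change in the list was 0.20, below the 1.56 of ESRP1 and the 0.65 of RBM47, with no test of that difference.

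Of the 6 relatives of RBM47 and its editing partner 0 were called by limma, against 9.9% of all genes called, a count too small to set apart from that share. Their changes ranged from -0.07 to 0.02, and 4 of the 6 were within background in both groups. A1CF, the closest known relative and another APOBEC1 cofactor, had means of 4.68 log2 in miR-200c and 4.75 in Ctrl cultures, and APOBEC1 had 4.42 in miR-200c and 4.49 in Ctrl cultures, all within the background range. SYNCRIP, a related RNA-binding protein gene, had 10.47 in miR-200c and 10.46 in Ctrl cultures.

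Among 21 measured genes of a list of 25 with exons reported to depend on the ESRP proteins, 3 rose, 1 fell and 17 did not pass. That is 19.0%, against 9.9% of all genes, and the median change was 0.05. OSBPL3, a lipid-binding protein gene, rose by 0.47 and the integrin gene ITGA6 by 0.35, GRHL1, an epithelial transcription factor gene, rose by 0.14 with both means within background, and RALGPS2 fell by 0.48. FGFR2 and CD44 had gene-level changes of -0.11 and 0.08 and did not pass in limma (adjusted p = 0.138 and 0.364). The FGFR2 mean was near the highest background row, at 6.26 log2 in miR-200c and 6.37 in Ctrl cultures, with 2 of 3 arrays above background in each group. A change in FGFR2 at that level could be missed. CD44 had 9.32 in miR-200c and 9.24 in Ctrl cultures. For uneven change over their rows, 2 of 21 passed, NUMB (adjusted p = 0.0121) and LRRFIP2 (0.0499), against 0.735% of all genes tested. LRRFIP2 lay close to the threshold of 0.05. Both counts are small, the list was chosen with earlier results of these data known, and an excess over all genes was not tested. A gene-level change says nothing of which exons are used.

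**Figure D4:**
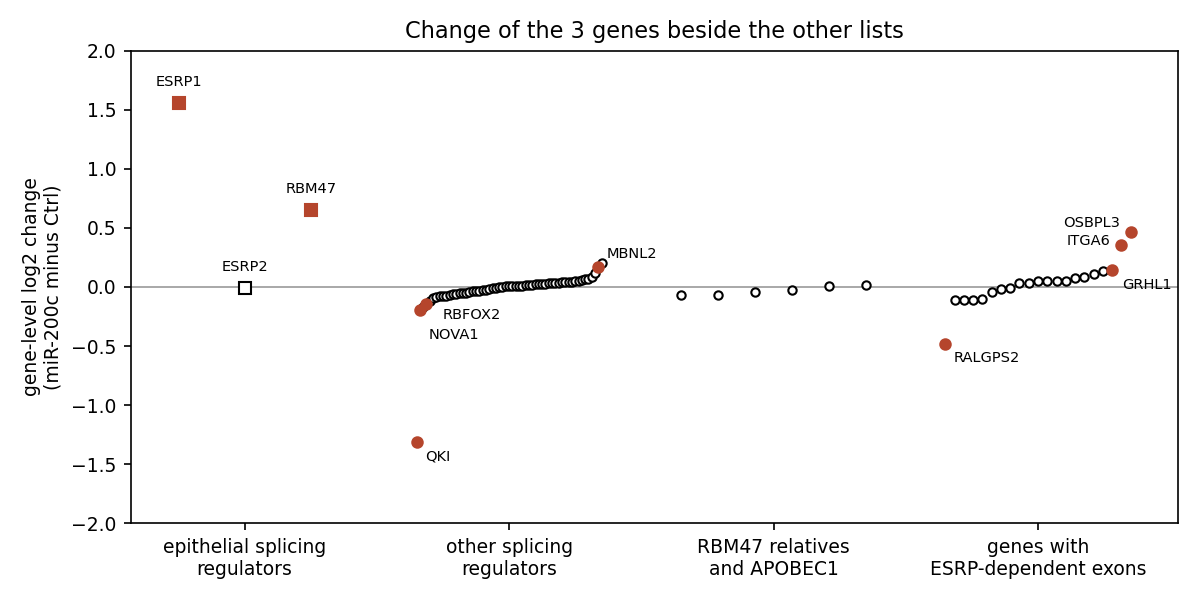
Gene-level log2 change (miR-200c minus Ctrl) of ESRP1, ESRP2 and RBM47 (squares with SE) and of the members of 3 lists (circles, sorted within each list), filled where the adjusted p is under 0.05. ESRP1 at 1.56 and RBM47 at 0.65 stand above all circles, QKI at -1.31 below them, and ESRP2 at -0.01 sits among the unfilled ones.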

How the data were processed

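The authors deposited log2 intensities, 1 per row and array. Partek is named in the submitters' processing notes. The sources used here do not give background correction, normalization, summarisation, build or strand. The span of the values gave the log2 scale. Of 925032 rows, 345 controls were left out. Row symbols came from the platform annotation. Gene values are means over rows with exactly 1 symbol. Rows and genes were fitted over the whole table with limma 3.58.1 (R 4.3.3) on the 6 arrays with group as the only term, with Benjamini-Hochberg adjustment and a threshold of 0.05. Figures were drawn with matplotlib 3.10.9. A bound sets the miR-200c mean against the Ctrl mean of, per array, the higher of the highest background row and the row's own value. Uneven change used rows relative to their gene's mean, limma and a Simes p per gene with at least 3 rows. The search for like patterns left out symbols of the LOC, LINC, MIR, SNOR and RNU kinds. The fits were tested on simulated data.

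Members, lists and rules were chosen with earlier results of these data known. Rows named are, per gene, the 5 largest absolute changes, the 3 brightest and the smallest p in each direction; other rows named were chosen after their values were seen. Lists name up to 4 members with the smallest p past the threshold; FGFR2, CD44, NUMB, LRRFIP2, A1CF, APOBEC1 and SYNCRIP were added after seeing values. In the lists, 8 splicing regulators and 4 genes of the exon list were not analysed here. The labels call the cultures biological triplicates. The p-values set the group difference against the spread between these cultures, which limma moderates over all genes or rows. The number of arrays limits the precision.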

Additional observations from a re-analysis of the deposited data

How the results depend on the processing

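The gene-level calls of ESRP1 and RBM47 were kept, with the same direction, under every alternative run, and ESRP2 passed in none. The runs were other row choices, quantile normalization, a variance trend, the replicate block, 1 array left out, and rows above the highest background row, added after seeing the data. Rows above the median row or the highest background row were chosen on all 6 arrays, so a row can enter through its rise. Those runs give no independent support. With 1 array left out the changes ranged from 1.54 to 1.59 for ESRP1, 0.62 to 0.68 for RBM47 and -0.03 to 0.02 for ESRP2, and the rows called from 22 to 25 for ESRP1, 14 to 16 for RBM47 and 0 to 0 for ESRP2. The adjusted p for uneven change ranged from 0.0198 to 0.0493 for ESRP1, 0.0867 to 0.209 for RBM47 and 0.413 to 1 for ESRP2. The letters A, B and C were not found to pair the arrays: deviations of same-letter arrays correlated at -0.17, -0.03 and 0.22, and 0 of 6 arrays correlated best with its own letter. With the replicate block, 20 ESRP1 rows, 13 RBM47 rows and 0 ESRP2 rows were called. Uneven change then had an adjusted p of 0.0545 for ESRP1 and 0.172 for RBM47, neither passing, and that fit has fewer residual degrees of freedom. Over the alternative runs of uneven change, the ESRP1 call was kept in 9 and lost in 1. The RBM47 call was kept in 3 and lost in 7. The 3 were limma's diffSplice F-test, all rows, and rows above the highest background row. Rows within background in 1 group give bounds only, and rows within it in both groups give no bound. ESRP1 and RBM47 each had 1 row that rose while within background on all 6 arrays. Of the 39 ESRP2 rows, 34 were within it on all 6 arrays and none was called. A change in ESRP2 at that level could be missed.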
